A study of Homo sapiens with 6 samples.

Results

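Messenger RNAs of 10 genes that write, erase or read N6-methyladenosine (m6A) were followed in DU-145/tet-XISTshRNA cells. The genes were taken by name as METTL3, METTL14, WTAP, ZC3H13, RBM15 and RBM15B of the writer complex, the eraser ALKBH5, and the readers YTHDF1, YTHDF2 and YTHDC1. All 10 were found among the 25528 gene symbols of the expression table. DU-145 is a human castration-resistant prostate cancer cell line, here transduced with a doxycycline-inducible short hairpin RNA against the long non-coding RNA XIST, and every sample of the series carries that vector. Of the 6 samples, 3 were treated with 0.1% DMSO as vehicle and 3 with 500 ng/ml doxycycline (DOX) for 7 days, the time given in the study's description of the experiment. No sample with a control hairpin and DOX was analysed here, so an effect of DOX itself and an effect of the hairpin cannot be told apart.

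The methyl group of m6A is placed on nascent RNA by a complex in which METTL3 is the catalytic subunit and METTL14 its RNA-binding partner. WTAP and ZC3H13 hold the complex in the nucleus, and RBM15 and its paralogue RBM15B bring it to particular RNAs, the A repeats of XIST among them. ALKBH5 removes the mark, YTHDC1 reads it in the nucleus, and the YTHDF proteins read it in the cytoplasm, where YTHDF2 recruits the CCR4-NOT deadenylase to the RNA. The comparison asks whether the mRNA levels of these genes differ once the hairpin against XIST is induced.

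Because 2 pairs of members are paralogues, their coding sequences were compared first, to see how far a read could fit both genes of a pair. Shown are the 60 bases of coding sequence that match best within each pair, read from GRCh38, 5′ to 3′ on the gene's strand, with matching bases in capitals.
RBM15, chr1:110342070-110342129, plus strand: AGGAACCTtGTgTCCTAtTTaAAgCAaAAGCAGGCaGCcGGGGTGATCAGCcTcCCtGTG
RBM15B, chr3:51393863-51393922, plus strand: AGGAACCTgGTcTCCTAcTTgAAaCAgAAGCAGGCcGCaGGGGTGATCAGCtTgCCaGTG
YTHDF1, chr20:63202717-63202776, minus strand: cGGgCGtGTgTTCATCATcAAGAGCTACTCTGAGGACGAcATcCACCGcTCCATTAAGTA
YTHDF2, chr1:28743497-28743556, plus strand: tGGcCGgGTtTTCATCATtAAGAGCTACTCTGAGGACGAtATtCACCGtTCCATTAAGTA
In these windows 49 of 60 bases matched between RBM15 and RBM15B and 52 of 60 between YTHDF1 and YTHDF2. The longest run shared without a mismatch was 14 bases for the first pair and 20 bases for the second. No stretch of 25 bases occurred in both coding sequences of either pair (0 of 2907 in RBM15 and 0 of 1653 in YTHDF1). The levels of the paralogues are given as separate measurements, although read length and the treatment of multiply mapped reads are not given in the sources used here.

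A stranded mRNA kit was used for the libraries, and the authors deposited TPM, a unit of transcripts per gene length whose total is fixed at 1000000 in every sample. Between 67.5% and 82.6% of that total lay in 5 small RNAs (RN7SK, RPPH1 and RN7SL1, RN7SL2 and RN7SL3), and on this scale the median log2 fold change of the 11672 genes tested was -0.35 between DOX and vehicle. The TPM of each sample was therefore divided by its median ratio to the geometric mean of the samples, between 0.686 and 1.40, which set the median to 0.01. This division takes the typical gene as unchanged between samples, which was not tested. Values are given below as scaled TPM unless the TPM as deposited is named. Reads recovered from the files came to 5454386 for vehicle replicate 3 and 64573689 for DOX replicate 1, with the other 4 samples between 16702080 and 20351487. The members had between 177 and 862 reads each in vehicle replicate 3, which sets the precision at its lowest. For XIST the table listed 0 TPM in every sample, and how far it was silenced is not measured by these values. Marker levels are given in TPM as deposited, without the scaling. The epithelial markers KRT8, KRT18, KRT19, EPCAM and CDH1 summed to 214 to 358 TPM with vehicle and 257 to 286 TPM with DOX. Among them EPCAM had 17.2 to 21.4 TPM with vehicle and 8.57 to 13.8 TPM with DOX. CDH1 had 9.78 to 13.6 TPM with vehicle and 5.11 to 9.14 TPM with DOX. Both were thus lower in every DOX sample, while the ranges of KRT8, KRT18 and KRT19 overlapped between the groups. The prostate genes KLK3 and FOLH1 were at 0 throughout, and the markers of leukocytes, endothelium and fibroblasts each summed to at most 1.00 TPM in any sample. Fibroblast markers summed to 0.647 to 0.817 TPM as deposited with vehicle and 0.289 to 0.427 TPM as deposited with DOX. Before scaling, 10867 of the 11672 genes tested had negative log2 fold changes, and fibroblast marker sums were not computed on scaled TPM. The part of these markers in the results was not tested.

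None of the 10 m6A genes was called different between DOX and vehicle (0 of 10). A call asked for a Benjamini-Hochberg adjusted p-value under 0.05 over all genes tested by limma on log2(scaled TPM + 1) and a fold change over 1.5. Over all genes the same rule called 0.0% lower and 0.0% higher with DOX. METTL3, WTAP and YTHDF2 kept nearly the same mean level, METTL14, ZC3H13 and YTHDC1 had lower means with DOX, and RBM15B, ALKBH5 and YTHDF1 had higher means. Before adjustment, ZC3H13 and YTHDC1 (lower with DOX) and RBM15B (higher) had a p-value under 0.05, against a background of 8.69% of genes lower and 7.38% higher. The median log2 fold change of the 10 members was -0.031, against 0.0095 for all genes tested. The members had 7 negative and 3 positive values, beside 5658 negative and 6014 positive over all genes tested.

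**Figure D1:**
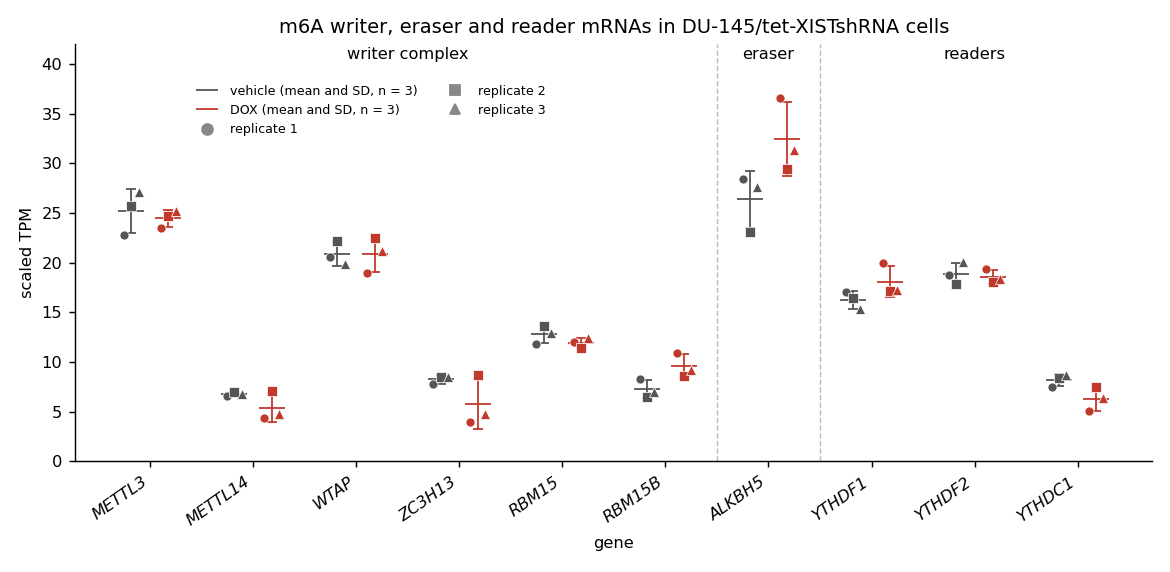
Scaled TPM (vertical axis, linear from 0) of the 10 m6A genes in each vehicle (grey) and DOX (red) sample, with horizontal marks for the mean and bars for the SD over 3 samples, and symbols for the replicate number. METTL3, WTAP and YTHDF2 lie at like levels in both groups, while METTL14 and ZC3H13 are low in DOX replicates 1 and 3 and at the vehicle level in DOX replicate 2.

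METTL3, the catalytic subunit (chromosome 14 of GRCh38, 21498133 to 21511342, minus strand), had 22.8, 25.7 and 27.1 scaled TPM in the vehicle samples, replicates 1 to 3 in turn, and 23.5, 24.7 and 25.2 in the DOX samples in the same order. The DOX samples lay inside the range of the vehicle samples. METTL3 had a log2 fold change of -0.040 (standard error 0.12, adjusted p = 0.875), with a 95% confidence interval from -0.30 to 0.22. WTAP, the regulatory subunit (chromosome 6, 159725585 to 159756319, plus strand), had 20.6, 22.2 and 19.9 scaled TPM with vehicle and 18.9, 22.5 and 21.1 with DOX. The DOX samples reached both below and above the vehicle samples. For WTAP the log2 fold change came to -0.0045 (standard error 0.12, adjusted p = 0.987), with a 95% confidence interval from -0.27 to 0.26. Both intervals hold changes in either direction, so a small change of METTL3 or WTAP cannot be told from none with 3 samples a group. The intervals do not give the size of change that would have been called.

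METTL14, the partner of METTL3 (chromosome 4, 118685392 to 118715433, plus strand), had 6.61, 7.01 and 6.82 scaled TPM in vehicle replicates 1, 2 and 3. With DOX it had 4.33, 7.05 and 4.80 scaled TPM. DOX replicates 1 and 3 lay below every vehicle sample, and DOX replicate 2 lay above them, so that the ranges overlapped. METTL14 had a log2 fold change of -0.31 (standard error 0.16, adjusted p = 0.355), with a 95% confidence interval from -0.68 to 0.05. ZC3H13, a zinc finger protein that links the complex to nuclear speckles (chromosome 13, 45954465 to 46052759, minus strand), showed the same split of the DOX samples. It had 7.76, 8.48 and 8.52 scaled TPM with vehicle and 3.95, 8.67 and 4.80 with DOX. Its log2 fold change of -0.50 (standard error 0.22, adjusted p = 0.304) was the most negative of the 10 members. Without DOX replicate 2 it came to -0.79 (adjusted p = 0.0588), and without DOX replicate 1 to -0.30 (adjusted p = 0.652). For METTL14 the corresponding values were -0.49 (adjusted p = 0.0841) and -0.19 (adjusted p = 0.719).

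RBM15 (chromosome 1, 110338506 to 110346681, plus strand), an adaptor that binds RNA, had 11.8, 13.6 and 12.9 scaled TPM with vehicle and 12.1, 11.4 and 12.4 with DOX. The groups overlapped, and RBM15 had a log2 fold change of -0.088 (standard error 0.12, adjusted p = 0.706). RBM15B (chromosome 3, 51391285 to 51397908, plus strand), its paralogue, had 8.33, 6.53 and 6.99 scaled TPM with vehicle. In the DOX samples it had 10.9, 8.60 and 9.21 scaled TPM, and every DOX sample lay above every vehicle sample. The means were 7.28 ± 0.939 with vehicle and 9.58 ± 1.21 with DOX (SD, n = 3 each). The log2 fold change of RBM15B was 0.35 (standard error 0.14, adjusted p = 0.284), the most positive of the members, with a 95% confidence interval from 0.04 to 0.66. Exons of DCAF1 on the opposite strand cover 20.0% of the exonic bases of RBM15B. Since the strand setting of the counting is not given in the sources used here, reads of DCAF1 may be part of the RBM15B values.

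ALKBH5, a demethylase of m6A (chromosome 17, 18183078 to 18209954, plus strand), had the highest mean of the 10 genes in both groups. It had 28.4, 23.1 and 27.6 scaled TPM with vehicle and 36.6, 29.4 and 31.4 with DOX. All DOX samples lay above all vehicle samples, although DOX replicate 2 exceeded vehicle replicate 1 by little. The means were 26.4 ± 2.86 with vehicle and 32.4 ± 3.69 with DOX (SD, n = 3 each), with a log2 fold change of 0.29 (standard error 0.13, adjusted p = 0.320).

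Of the readers, YTHDF2, which leads m6A-containing RNA to decay (chromosome 1, 28736621 to 28769775, plus strand), had 18.7, 17.9 and 20.0 scaled TPM with vehicle and 19.3, 18.1 and 18.3 with DOX. The DOX samples lay within the vehicle range, with a log2 fold change of -0.022 (standard error 0.11, adjusted p = 0.933), with a 95% confidence interval from -0.27 to 0.23. Exons on the opposite strand, of ENSG00000289291, cover 24.7% of the exonic bases of YTHDF2. YTHDF1, its cytoplasmic relative (chromosome 20, 63195429 to 63216139, minus strand), had 17.1, 16.4 and 15.3 scaled TPM with vehicle and 19.9, 17.1 and 17.2 with DOX. Each DOX sample of YTHDF1 lay above each vehicle sample, with a log2 fold change of 0.14 (standard error 0.12, adjusted p = 0.537), which was 0.077 without DOX replicate 1. YTHDC1, the nuclear reader (chromosome 4, 68310387 to 68350090, minus strand), had 7.46, 8.44 and 8.69 scaled TPM with vehicle and 5.05, 7.46 and 6.43 with DOX. It was the member with all DOX samples below all vehicle samples on this scale, with 7.458 scaled TPM in the lowest vehicle sample against 7.456 in the highest DOX sample. The log2 fold change of YTHDC1 was -0.34 (standard error 0.15, adjusted p = 0.304), and without DOX replicate 1 it was -0.21 (adjusted p = 0.652). Groups without overlap thus occurred for 1 member with DOX lower and for 3 members with DOX higher, where 10.5% and 9.77% of all genes tested showed the same.

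Levels per length differed more between the genes than between the treatments. In vehicle-treated cells the order was ALKBH5 (26.4 scaled TPM), METTL3 (25.2), WTAP (20.9), YTHDF2 (18.9), YTHDF1 (16.3), RBM15 (12.8), ZC3H13 (8.25), YTHDC1 (8.19), RBM15B (7.28) and METTL14 (6.81). The ranges of ALKBH5 and METTL3 overlapped, as did those of WTAP and YTHDF2, and the 4 genes from ZC3H13 down to METTL14 could not be ordered beyond their spread between neighbours. By mean TPM the members stood between the 46.3 percentile (METTL14) and the 86.4 percentile (ALKBH5) of the genes tested. In DOX-treated cells RBM15B, at 9.58 scaled TPM, stood above YTHDC1 (6.31), ZC3H13 (5.81) and METTL14 (5.40). There RBM15B exceeded YTHDC1 in 3 of 3 samples without overlap, whereas with vehicle YTHDC1 was the higher of the pair in 2 of 3.

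The directions depended on the scale. On the TPM scale as deposited all 10 members, and 10867 of the 11672 genes tested, had negative log2 fold changes, from -0.87 (ZC3H13) to -0.039 (RBM15B), with a median of -0.45 against -0.35 for all genes tested. The values for METTL14, YTHDC1 and ALKBH5 were then -0.68, -0.72 and -0.14. Limma called 0 of the 10 members on this scale, where it called 2.98% of all genes lower and 0.0257% higher, and 3 members, all lower with DOX, had a p-value under 0.05 before adjustment, as did 29.2% of all genes lower and 0.206% higher. The DOX samples of RBM15, YTHDF1, YTHDF2 and YTHDC1 all lay below the vehicle samples on this scale, as did those of 30.7% of all genes tested, and 0 members lay above, against 0.223%. With the replicate number as a block on the deposited scale, METTL14 (adjusted p = 0.00438), ZC3H13 (adjusted p = 0.000296) and YTHDC1 (adjusted p = 0.00279) were called lower. That fit called 19.0% of all genes lower. On scaled TPM the block left 0 members and 0.0% of genes called in either direction, with adjusted p-values of 0.0715 for RBM15B, 0.0919 for YTHDC1, 0.0962 for ALKBH5 and 0.107 for ZC3H13. Voom, limma's method for counts, was applied to the recovered reads with the block and called 0 members, against 2.24% of genes called lower and 1.46% called higher. Without the limit on the fold change YTHDC1 (log2 fold change -0.38, adjusted p = 0.0356), ZC3H13 (-0.56, 0.0456), RBM15B (0.40, 0.0255) and ALKBH5 (0.31, 0.0488) passed the adjusted p-value, as did 8.09% of all genes lower and 5.65% higher. None of these members passed in the same voom fit with the correction for GC content and length described below. There YTHDC1 had -0.14 (adjusted p = 0.482), ZC3H13 -0.31 (0.310), RBM15B 0.23 (0.262) and ALKBH5 0.047 (0.838).

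**Figure D2:**
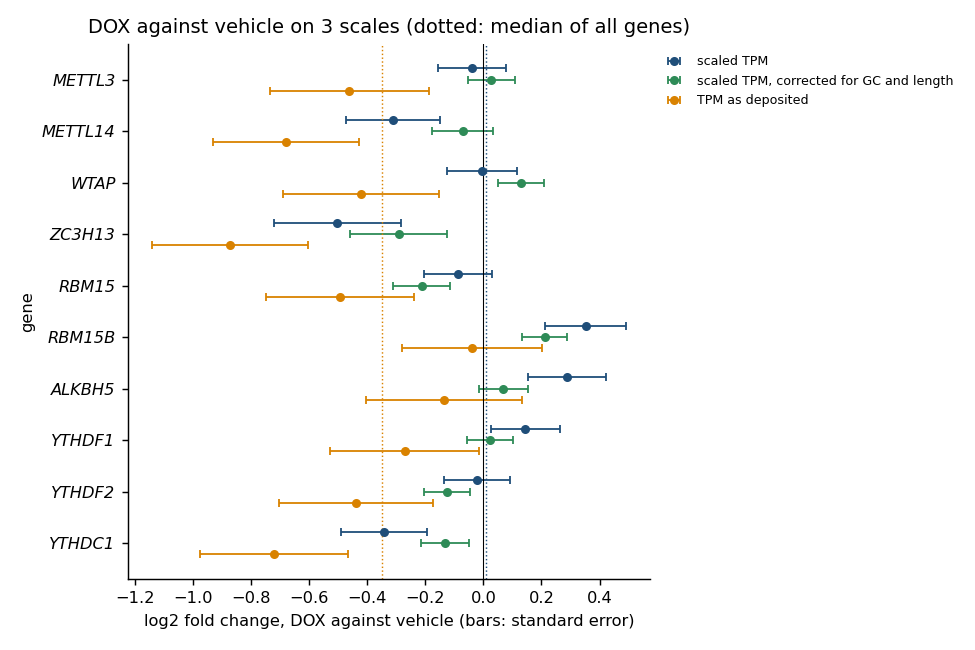
Log2 fold changes of DOX against vehicle (horizontal axis, points with standard errors from limma, n = 3 a group) for the 10 members on scaled TPM (blue), scaled TPM corrected for GC content and length (green) and TPM as deposited (orange), with dotted lines for the median of all genes tested on the first and last scale. The orange points are all negative, and the blue points run from -0.50 for ZC3H13 to 0.35 for RBM15B.

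Base composition moved with these differences. The exonic GC content of the members ran from 38.2% in METTL14, 39.5% in YTHDC1 and 40.3% in ZC3H13 to 55.8% in RBM15B and 57.5% in ALKBH5. Across the 10 genes the log2 fold change and GC content had a Pearson correlation of 0.85, and over the 11198 genes tested with a GC value it was 0.66. These are correlations across genes that share the same 6 libraries, so they describe these libraries and carry no test. The genes were divided by GC content into 3 groups of equal size. Those of the low-GC group, METTL14, WTAP, ZC3H13 and YTHDC1 among them, had a median log2 fold change of -0.19. The high-GC group, with RBM15, RBM15B and ALKBH5, had a median of 0.21. The low-GC group deviated from the vehicle mean by a median of -0.35, -0.06 and -0.14 (log2) in DOX replicates 1, 2 and 3, and the high-GC group by 0.41, 0.07 and 0.13. DOX replicate 2, in which METTL14 and ZC3H13 were at the vehicle level, was thus also the DOX sample with the smallest deviation by GC content. Vehicle samples deviated by -0.10 to 0.08 in the low-GC group and by -0.08 to 0.13 in the high-GC group. The part of base composition in the members' values was not tested beyond the correction below.

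**Figure D3:**
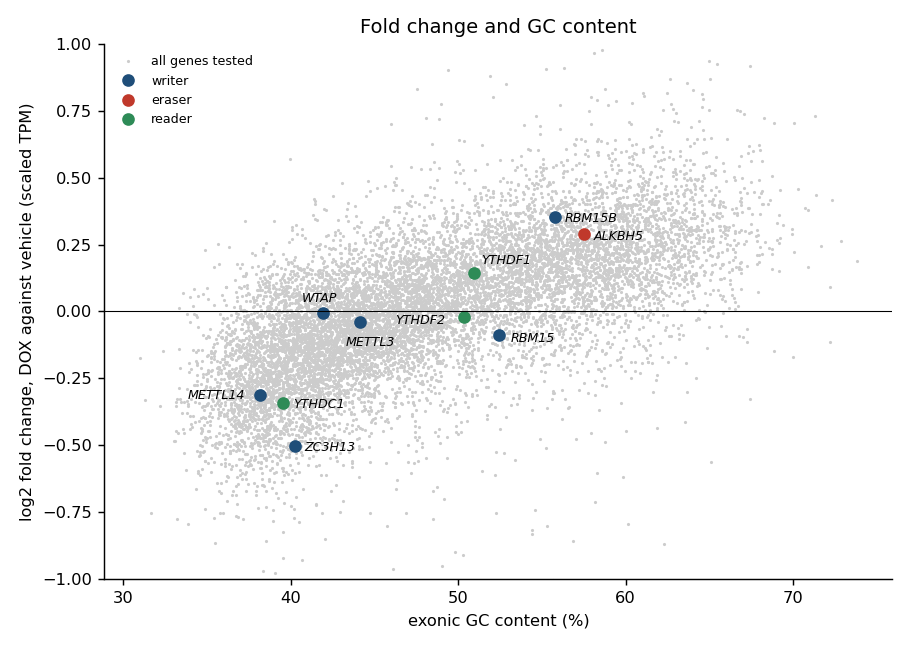
Log2 fold change of DOX against vehicle on scaled TPM (vertical axis, shown from -1 to 1, with 17 genes outside that range) against exonic GC content in percent (horizontal axis) for all genes tested (grey) and the writers (blue), eraser (red) and readers (green). ZC3H13, METTL14 and YTHDC1 lie at the lower left, and RBM15B and ALKBH5 at the upper right of the grey cloud.

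A correction for GC content and exonic length takes out every difference between samples that follows them, including any effect of the treatment that does. After each sample was corrected in this way, 0 members and 0.0% of the 11198 genes with a GC value were called in either direction. The log2 fold change of METTL14 was then -0.072, that of ALKBH5 0.069, that of YTHDF1 0.021 and those of YTHDF2 and YTHDC1 both -0.13. ZC3H13 kept 7.68, 7.42 and 7.68 corrected scaled TPM with vehicle against 4.97, 8.50 and 5.09 with DOX, so that DOX replicates 1 and 3 still lay below every vehicle sample. The corrected log2 fold change of ZC3H13 was -0.29 (standard error 0.17, adjusted p = 0.474). RBM15B had 8.12, 7.32 and 7.57 corrected scaled TPM with vehicle and 8.99, 9.01 and 9.09 with DOX. The groups still did not overlap, with a log2 fold change of 0.21 (standard error 0.08, adjusted p = 0.329). WTAP was also without overlap here, with at most 20.7 with vehicle and at least 21.5 with DOX. YTHDF2 (at least 18.8 with vehicle, at most 18.3 with DOX) and YTHDC1 (at least 7.32, at most 7.25) had all DOX samples lower. The share of all genes without overlap was not computed on the corrected scale. RBM15 moved away from zero, to -0.21 (standard error 0.10, adjusted p = 0.392), and METTL3 and WTAP turned to 0.028 and 0.13.

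Ratios between members within a sample do not depend on the scaling. The 7 ratios compared were tested two-sided by exact permutation, which at 3 against 3 samples can give no p under 0.1. The ratio of RBM15 to RBM15B was 1.42, 2.09 and 1.85 in the vehicle samples and 1.10, 1.33 and 1.34 in the DOX samples. The highest DOX ratio stood below the lowest vehicle ratio, a log2 difference of -0.49 (exact permutation p = 0.1, adjusted p = 0.35 over the 7 ratios). From the values corrected for GC content and length the ratios were 1.46, 2.01 and 1.81 with vehicle and 1.18, 1.31 and 1.31 with DOX, a log2 difference of -0.47 (exact permutation p = 0.1). YTHDF1 to YTHDF2 was 0.911, 0.918 and 0.765 with vehicle and 1.03, 0.949 and 0.942 with DOX, again without overlap (log2 difference 0.17, exact permutation p = 0.1, adjusted p = 0.35). Without vehicle replicate 3, the sample with the fewest reads, the difference was 0.089, and with the correction for GC content and length it was 0.15. METTL3 to METTL14 was 3.45, 3.67 and 3.97 with vehicle and 5.41, 3.50 and 5.24 with DOX, where DOX replicate 2 fell among the vehicle samples (exact permutation p = 0.3). ZC3H13 to METTL3 was 0.340, 0.330 and 0.314 with vehicle and 0.168, 0.351 and 0.191 with DOX, with the same sample apart (exact permutation p = 0.4). The ratios of ALKBH5 to METTL3 (log2 difference 0.34) and YTHDC1 to YTHDF2 (-0.37) overlapped between the groups. With the correction these log2 differences were 0.043 and -0.020, that of METTL3 to METTL14 went from 0.33 to 0.11, and that of ZC3H13 to METTL3 from -0.55 to -0.37. WTAP to METTL3 was the steadiest of the 7, between 0.734 and 0.910 over all 6 samples.

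**Figure D4:**
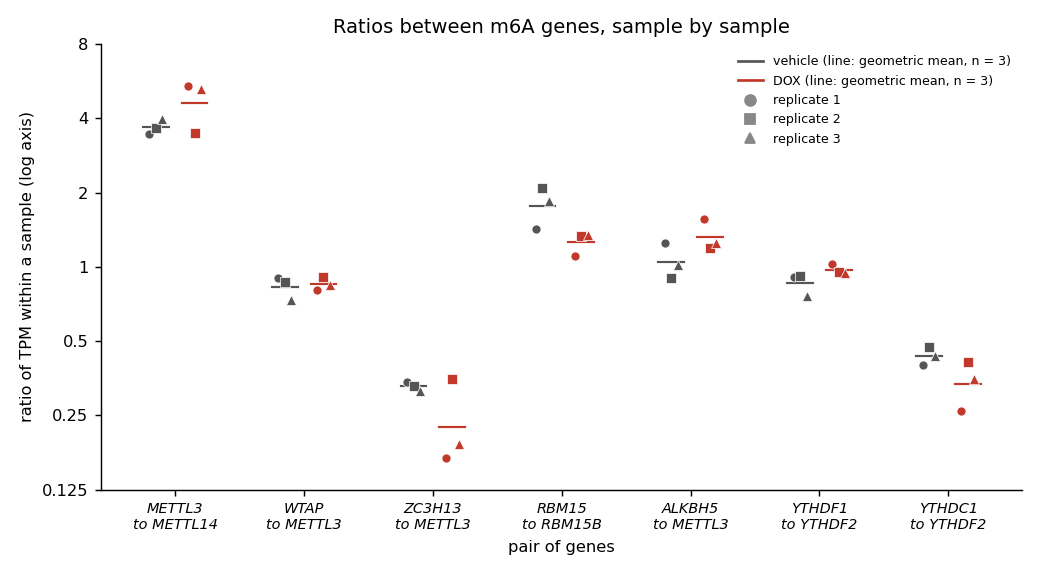
Ratio of the TPM of 2 members within each sample (vertical axis, log scale) for 7 pairs in vehicle (grey) and DOX (red) samples, with symbols for the replicate number and lines for the geometric mean of 3 samples. The DOX samples lie below the vehicle samples for RBM15 to RBM15B and above them for YTHDF1 to YTHDF2, and the other 5 pairs overlap.

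A further 29 genes of the pathway were listed beside the members, of which 28 passed the expression minimum. The lists do not cover every gene of the pathway. None was called (0 of 28), and before adjustment 3 genes lower with DOX and 0 higher had a p-value under 0.05, beside the 8.69% and 7.38% of all genes. The median log2 fold change of the 28 genes was -0.047. Among cofactors of the writer and other methyltransferases, TRMT112, an activator of several methyltransferases, had the most positive value of the list (log2 fold change 0.35, adjusted p = 0.348), and CBLL1, a ubiquitin ligase found in the writer complex, had -0.077. FTO, the other m6A demethylase, had 17.0 ± 1.75 scaled TPM with vehicle and 16.9 ± 2.66 with DOX (SD, n = 3 each), a log2 fold change of -0.018 (standard error 0.14, adjusted p = 0.957). YTHDC2, an RNA helicase with a YTH domain, had the most negative value of the list, with 17.2 ± 2.18 scaled TPM against 12.5 ± 3.25 (SD, n = 3 each) and a log2 fold change of -0.45 (adjusted p = 0.287). After correction for GC content and length it was -0.15 (adjusted p = 0.511). PRRC2A, an RNA-binding protein linked to m6A, had 0.31 (adjusted p = 0.339). The corrected values of TRMT112 and PRRC2A were 0.094 and 0.16. IGF2BP1, a reader that stabilizes m6A-containing RNA, lay under the expression minimum with 0.602 ± 0.0780 scaled TPM with vehicle and 0.593 ± 0.0404 with DOX (SD, n = 3 each).

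CCR4-NOT, the deadenylase that YTHDF2 recruits, was measured through 10 of its subunits, which are not all of them. These had 7 negative and 3 positive log2 fold changes, beside 5658 negative and 6014 positive over the 11672 genes tested. CNOT1, its scaffold, had 70.6 ± 5.33 scaled TPM with vehicle and 67.0 ± 1.05 with DOX (SD, n = 3 each), a log2 fold change of -0.072 (standard error 0.11, adjusted p = 0.752) with a 95% confidence interval from -0.33 to 0.18. The largest differences were those of CNOT6L, a catalytic subunit (log2 fold change -0.45, adjusted p = 0.278), and CNOT4, a ubiquitin ligase (-0.35, adjusted p = 0.295). CNOT3, a regulatory subunit, had 0.28 (adjusted p = 0.380). With the correction for GC content and length CNOT6L had -0.15, CNOT4 -0.18 and CNOT3 0.12. On the deposited TPM scale with the replicate block, 7 of the 28 genes were called lower, namely CNOT2, CNOT4, CNOT6, CNOT6L, FMR1, HNRNPA2B1 and YTHDC2, where 19.0% of all genes were.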

How the data were processed

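RNA-seq of 3 vehicle-treated and 3 DOX-treated samples was analysed, with groups and replicate numbers from the sample titles. The authors aligned reads with STAR to the human genome, written GRCh38.74 in the methods and GRCh38 in the submitters' processing notes, and deposited TPM per gene symbol. The counting tool, its strand setting and the versions of STAR and of the authors' DESeq2 are not given in the sources used here. The authors also deposited their DESeq2 results, from which only the mean signal (normalized count) per gene over all samples was used, and not the fold changes and p-values. The 10 members and the other lists were chosen with earlier results of these data known.

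TPM was divided by median-of-ratios factors, the 11672 genes whose TPM averaged 1 or more were kept, and log2(value + 1) was tested by limma 3.58.1 (R 4.3.3) with a variance trend and no block. Fold changes on this scale understate those of low genes. The authors used DESeq2 on counts. Their own counts were not analysed here, and voom was run on recovered reads as an alternative, so the tests differ from theirs. Reads were recovered by combining TPM with the mean normalized counts. Of 18871 low values, 98.8% came within 0.05 of a whole read, against 10% for evenly spread values. Some of these low values also set the conversion, so the share is no independent check. GC content and exonic length came from GENCODE 44 on GRCh38, matched for 90.3% of symbols, and were corrected by splines with 5 degrees of freedom per sample. All 10 members and all 28 other m6A genes tested had a value. The recovery of reads and the limma and voom fits were tested on simulated data, and the GC and length correction was not. The simulated data held no GC trend and no replicate effect, so they do not show how the fits behave with these features.

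Replicate numbers are shared between groups, and the deviation from the group mean was correlated across genes between the vehicle and DOX samples of each number (r = 0.55, 0.26 and 0.18). After the GC and length correction r was 0.16, 0.01 and 0.15. The pairing rests on these correlations alone. The samples are cultures of 1 cell line, and p-values measure only the spread between them. Named genes were all members, the other m6A genes called or else the 3 most changed in each direction, FTO, CNOT1, IGF2BP1, XIST, and the 3 genes most like the members' mean profile. Genes named beyond this rule (CBLL1, and those called with the block on deposited TPM) were chosen after their values were seen. Identical values occurred in 0 pairs of samples. Python 3.11.15, pandas 2.3.3, SciPy 1.17.1 and matplotlib 3.10.9 were used.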

Additional observations from a re-analysis of the deposited data

How the results depend on the processing

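The count of genes called over all genes, 0 on scaled TPM, was 351 on TPM as deposited (348 lower, 3 higher) and 2232 there with the replicate block (2217 lower, 15 higher). It was 1 with a mean TPM of at least 5, 1 with voom on recovered reads, 431 with voom and the replicate block (261 lower, 170 higher), 5 when GC content and length were corrected as well, and between 0 and 14 with each sample left out, 14 without vehicle replicate 1 and 9 without DOX replicate 2. The cause was not tested. The replicate block with deposited TPM called 3 members and 7 other m6A genes, and the other 16 alternatives called 0 of either. The block changed no other call on a member or a listed m6A gene. On deposited TPM, with or without the block, RBM15B (-0.039), ALKBH5 (-0.14) and YTHDF1 (-0.27) turned negative. The median of all genes tested is -0.35 on that scale, and which scale gives the true signs was not tested. With GC and length correction, with or without the block, METTL3 (0.028) and WTAP (0.13) turned positive, and with voom, block and correction they had 0.061 and 0.16. With each sample left out, log2 fold changes ranged from -0.11 to 0.013 for METTL3, from -0.058 to 0.060 for WTAP and from -0.058 to 0.020 for YTHDF2. The log2 difference of WTAP to METTL3 ranged from -0.052 to 0.10, and the other 6 ratios kept their sign under all 8 alternatives run for each, although with GC and length correction YTHDC1 to YTHDF2 came to -0.020 and ALKBH5 to METTL3 to 0.043. Leaving out DOX replicate 1 moved YTHDC1 to YTHDF2 to -0.19, METTL3 to METTL14 to 0.22 and ZC3H13 to METTL3 to -0.34, and leaving out DOX replicate 2 moved the last 2 to 0.53 and -0.87. With the block, exact sign-flip tests over 3 pairs cannot go below 0.25, the value for RBM15 to RBM15B, YTHDF1 to YTHDF2, ALKBH5 to METTL3 and YTHDC1 to YTHDF2.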

Other observations

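The mean centred profile of the 10 members on log2(scaled TPM + 1) was 0.01, 0.02 and 0.05 in the vehicle samples, replicates 1 to 3 in turn, and -0.08, 0.06 and -0.06 in the DOX samples. Of the other genes tested, OSBPL6, YEATS2 and ZNF701 had the smallest root mean square differences from that profile over the 6 samples, between 0.021 and 0.024 on the log2 scale.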
